A study of Mus musculus with 6 samples.

Results

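The goblet cell mucus genes comprised 10 genes, chosen by symbol: Muc2, Tff3, Clca1, Fcgbp, Zg16, Agr2, Spink4, Spdef, Reg4 and Retnlb. All 10 were found among the 28752 genes of the deposited table, and all 10 were among the 18348 genes kept by edgeR's filter on low counts and tested. RNA sequencing compared 3 samples carrying the vector with 3 samples in which circEZH2_005, a circular RNA, was overexpressed from an adenovirus. The genotype label was WT for the vector samples and circEZH2_005 overexpression for the others. Every sample came from Lgr5-GFP mice, whose stem cells at the crypt base carry a green fluorescent protein. The sorted Lgr5+ intestinal stem cells (ISCs) were grown as crypt-villus organoids, infected for 72 h by the labels (the study's organoid methods give a shorter time) and then exposed to hypoxia/reoxygenation (H/R), with hypoxia of 4 h at 2% O2. Both groups were thus under H/R, and no sample kept in normal oxygen was analysed here. Ages of the donor mice of these organoids are not given in the labels. The study describes its experiments in general as biologically replicated, but no source used here says for these sequencing samples whether those of a group were separate cultures or animals, so p-values measure only the spread between these samples, which may be technical.

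Goblet cells are the secretory cells that lay down intestinal mucus. The gel is built from the mucin Muc2, which is folded in the endoplasmic reticulum (ER), coated with O-linked sugars in the Golgi, packed into granules and released together with other mucus proteins. Maturation of the lineage depends on transcription factors that include Atoh1, Klf4 and Spdef, and goblet cells arise from the Lgr5+ cells of the crypt.

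Expression is given as CPM (read counts per sample brought to 1 scale with the TMM factors of edgeR) for comparisons between samples, and as FPKM (read fragments relative to transcript length and sequencing depth) for comparisons between genes. Total counts ranged from 71506487 to 79919893 per sample, at which 3 counts correspond to between 0.0377 and 0.0419 CPM, a floor that covers counting error only. A gene was called higher or lower at an adjusted p under 0.05 (edgeR's quasi-likelihood test, Benjamini-Hochberg over all genes tested).

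Of the 10 mucus genes, 1 was higher in circEZH2_005 samples, 0 were lower and 9 were not called; of all genes tested, 2.69% were higher, 0.986% were lower and 3.67% were called in either direction. The gene that rose was Clca1, which encodes a metalloprotease secreted into mucus. At an unadjusted p under 0.05 there were 2 higher (Clca1 and Tff3) and 3 lower genes (Agr2, Spink4 and Retnlb), beside 14.0% higher and 9.72% lower of all genes tested, and the same 5 genes (50.0%) were those whose groups did not overlap, beside 30.6% of all genes tested. The median log2 fold change of the 10 genes was 0.04, beside 0.00 for all genes tested. For the gel-forming mucin Muc2 and its abundant partners Fcgbp and Zg16, the groups overlapped and the 95% interval of the log2 fold change included 0. DESeq2 called 2 higher (Clca1 and Tff3) and 2 lower genes (Agr2 and Retnlb), beside 9.65% and 4.26% of the 16459 genes to which it gave an adjusted p. limma on log2(FPKM + 1) called 0, beside 2.79% higher and 2.74% lower of 13278 genes. In bulk samples, fewer cells of a type and less RNA per cell cannot be told apart.

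Promoter sequences were taken from RefSeq (GRCm38.p6), where 5 of the 10 genes matched by symbol: Muc2, Fcgbp, Agr2, Spdef and Reg4. The 200 bases before the RefSeq start of 3 of them are shown, Muc2 and Fcgbp because their levels varied together over the samples, and Agr2 because its level went the other way from that of Clca1. Capitals mark 4 motifs searched on both strands: CACCC, the core bound by Krüppel-like factors such as Klf4; GGAT, a core of ETS factors such as Spdef; CAGCTG, an E-box of the kind bound by Atoh1; and TGTTTAC, bound by forkhead factors. The sequences are written 5′ to 3′ on the strand of the gene.
Muc2 (chr7:141690140-141690339, plus strand): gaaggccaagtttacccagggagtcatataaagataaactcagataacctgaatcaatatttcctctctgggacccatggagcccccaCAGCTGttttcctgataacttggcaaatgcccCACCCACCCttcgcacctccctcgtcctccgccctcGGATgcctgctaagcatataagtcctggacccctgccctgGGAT
Fcgbp (chr7:28071036-28071235, plus strand): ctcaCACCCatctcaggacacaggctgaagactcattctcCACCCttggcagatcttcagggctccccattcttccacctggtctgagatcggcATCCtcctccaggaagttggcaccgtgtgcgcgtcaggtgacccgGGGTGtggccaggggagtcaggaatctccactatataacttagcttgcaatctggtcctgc
Agr2 (chr12:35992725-35992924, plus strand): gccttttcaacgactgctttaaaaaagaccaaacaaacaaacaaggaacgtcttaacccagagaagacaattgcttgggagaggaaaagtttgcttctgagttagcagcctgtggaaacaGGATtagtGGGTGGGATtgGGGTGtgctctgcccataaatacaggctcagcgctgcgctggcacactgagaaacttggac

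Over the 250 bases before the start, CACCC or its reverse occurred 3 times at Muc2, 4 times at Fcgbp and 2 times at Agr2, and 0 times at Spdef and Reg4. In Muc2 a pair of these matches shared a base, and in Agr2 a CACCC match on the other strand directly preceded a GGAT match. GGAT occurred 4 times at Muc2, 2 times each at Fcgbp, Agr2 and Reg4, and 5 times at Spdef. Some of these matches lie before the bases shown. CAGCTG occurred once at Muc2 and once, farther from the start than the bases shown, at Fcgbp, and TGTTTAC occurred once, at Reg4. These short motifs are common: among 32851 RefSeq promoters, CACCC was present in 52.0%, GGAT in 74.1%, CAGCTG in 13.0% and TGTTTAC in 3.17%. A match is a description of the letters in the window only.

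The structural members were examined first. Muc2 (chromosome 7, 141690340 to 141754690, plus strand), the gel-forming mucin, had 831, 544 and 929 CPM in the 3 vector samples (in the order 1, 2, 3) and 785, 1068 and 824 CPM in the circEZH2_005 samples. The groups overlapped, with the lowest value in vector sample 2 and the highest in circEZH2_005 sample 2. Its log2 fold change was 0.22 (standard error (SE) 0.21, 95% interval -0.27 to 0.70, adjusted p = 0.588 by edgeR with Benjamini-Hochberg adjustment), an interval of 0.830-fold to 1.63-fold.

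Fcgbp (chromosome 7, 28071236 to 28120862, plus strand) encodes a large mucus protein that is secreted with Muc2, and it took the most counts of the 10 genes, between 0.260% and 0.353% of a sample. It had 3211, 2515 and 3460.1 CPM in the vector samples and 2826, 3692 and 3080.0 CPM in the circEZH2_005 samples, again lowest in vector sample 2 and highest in circEZH2_005 sample 2. The log2 fold change was 0.06 (SE 0.15, 95% interval -0.29 to 0.42, adjusted p = 0.849 by edgeR with Benjamini-Hochberg adjustment), and its sign differed between ways of scaling the counts. Zg16 (chromosome 7, 127050156 to 127087286, minus strand), a lectin-like protein of the mucus that binds Gram-positive bacteria, had 1100.2, 929 and 1097 CPM with the vector and 997, 1269.6 and 1167 CPM with circEZH2_005. The same samples were lowest and highest, the groups overlapped, and the log2 fold change was 0.14 (SE 0.12, adjusted p = 0.559, same test). Other annotated genes lie within introns of Zg16 (Gm22747 and Gm44939), with no overlap at exons.

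Clca1 (chromosome 3, 145003817 to 145032776, minus strand), whose product cleaves Muc2 in the released mucus, had 492, 644 and 600.1 CPM in the vector samples and 927, 1167 and 848 CPM in the circEZH2_005 samples. Every circEZH2_005 sample lay above every vector sample. The mean rose from 579 ± 78.4 to 981 ± 166 CPM (SD, n = 3 each), 1.69-fold (95% interval 1.33 to 2.16; log2 fold change 0.76, SE 0.15, adjusted p = 0.0433 by edgeR with Benjamini-Hochberg adjustment). The two-sided exact permutation test gave p = 0.1, the smallest that 3 samples against 3 allow. The direction held in each of the 15 alternative settings, with a log2 fold change of 0.62 to 0.85, but the call was close to the threshold. The adjusted p was 0.161 without vector sample 1, 0.165 without vector sample 3, and 0.0567, 0.119 and 0.0658 without circEZH2_005 samples 1, 2 and 3, whereas it was 0.0295 without vector sample 2. Clca1 belongs to a cluster of related genes on chromosome 3, and reads that match more than 1 of them could have been assigned to either. The other 7 Clca genes of the table, looked at after results were seen, went different ways. Clca4b had more counts than Clca1, 78197, 78280 and 81980 with the vector and 86685, 150246 and 97274 with circEZH2_005 (log2 fold change 0.49, SE 0.21, adjusted p = 0.201, same test). Clca4a had 4864, 8190 and 6479 counts with the vector and 40970, 49334 and 24688 with circEZH2_005, and rose by 2.55 on the log2 scale (SE 0.27, adjusted p = 0.0106, same test). The pseudogene Clca4c-ps also rose (2.97, adjusted p = 0.0175), Clca3a2 (-1.15, adjusted p = 0.0241) and Clca3a1 (-0.73, adjusted p = 0.0426) fell, and Clca3b (-0.21, adjusted p = 0.425) and Clca2 (0.38, adjusted p = 0.755) were not called (same test). The part of shared reads in the value of Clca1 was not tested.

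Tff3 (chromosome 17, 31125306 to 31129646, minus strand), the trefoil peptide of goblet cells that promotes epithelial repair, had 343, 321 and 339 CPM in the vector samples and 409.8, 456 and 427 CPM in the circEZH2_005 samples. The replicates of Tff3 lay close together, and every circEZH2_005 sample was above every vector sample. The log2 fold change was 0.37 (SE 0.08, 95% interval 0.17 to 0.56), a 1.29-fold difference of means that did not pass the adjustment (p = 0.00247, adjusted p = 0.0555 by edgeR with Benjamini-Hochberg adjustment; exact permutation p = 0.1).

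**Figure D1:**
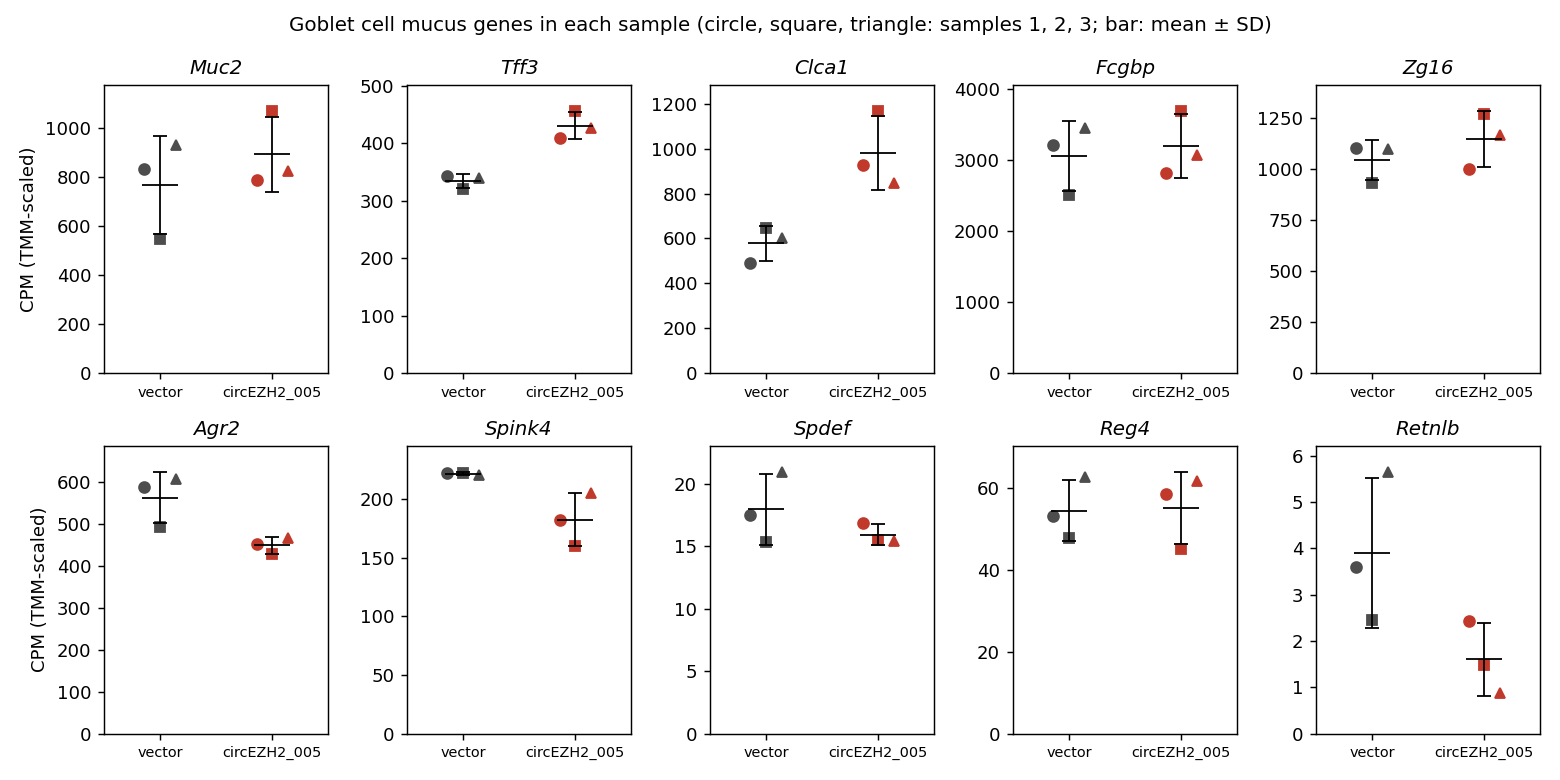
Expression of the 10 goblet cell mucus genes in each sample, as CPM scaled with TMM factors (vertical axes, linear from 0), in vector (grey) and circEZH2_005 (red) samples; circles, squares and triangles are samples 1, 2 and 3, and the bars are mean ± SD (n = 3 each). Clca1 and Tff3 are higher in every circEZH2_005 sample, Agr2, Spink4 and Retnlb are lower in every one, and the groups of the other 5 genes overlap.

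Agr2 (chromosome 12, 35992907 to 36004087, plus strand) encodes a protein disulfide isomerase of the ER that Muc2 needs for its assembly. It had 588, 492 and 606 CPM in the vector samples and 452, 427 and 465 CPM in the circEZH2_005 samples. Every circEZH2_005 sample lay below every vector sample, but the gap to vector sample 2 was small. The log2 fold change was -0.33 (SE 0.10, 95% interval -0.57 to -0.09) and was not called (p = 0.0141, adjusted p = 0.110 by edgeR with Benjamini-Hochberg adjustment; exact permutation p = 0.1). Without vector sample 2 it was called (adjusted p = 0.0474).

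Spink4 (chromosome 4, 40920052 to 40931395, plus strand), a secreted protein of the Kazal protease inhibitor family, had 223, 223 and 220.1 CPM with the vector and 182, 160.0 and 205 CPM with circEZH2_005. The vector samples were almost equal, with a coefficient of variation of 0.629%, and all lay above the circEZH2_005 samples. The log2 fold change of -0.28 (SE 0.10, 95% interval -0.52 to -0.04) was not called (p = 0.0259, adjusted p = 0.149, same tests; exact permutation p = 0.1).

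Retnlb (chromosome 16, 48816856 to 48818892, plus strand), the resistin-like secreted protein of goblet cells that is best known from the colon, had the fewest counts of the 10 genes. It had 260, 183 and 442 counts (3.59, 2.45 and 5.65 CPM) in the vector samples and 194, 111 and 63 counts (2.44, 1.49 and 0.879 CPM) in the circEZH2_005 samples. The groups did not overlap, yet vector sample 2 and circEZH2_005 sample 1 were nearly equal. The log2 fold change was -1.28 (SE 0.44), the widest difference of the 10 genes, with an interval of -2.29 to -0.26, and it was not called (p = 0.0200, adjusted p = 0.131 by edgeR with Benjamini-Hochberg adjustment; exact permutation p = 0.1). Its paralogs Retnla and Retnlg had at most 69 counts in any sample, and reads shared between the 3 genes could have been split among them.

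Spdef (chromosome 17, 27714352 to 27728953, minus strand), the ETS transcription factor of goblet cell maturation, had 17.5, 15.4 and 21.0 CPM with the vector and 16.9, 15.5 and 15.4 CPM with circEZH2_005. The groups overlapped, and the log2 fold change was -0.17 (SE 0.14, 95% interval -0.49 to 0.14, adjusted p = 0.497, same test). Reg4 (chromosome 3, 98222156 to 98236748, plus strand), a C-type lectin of the Reg family that marks goblet and enteroendocrine cells, had 53.1, 47.7 and 62.5 CPM with the vector and 58.6, 45.0 and 61.6 CPM with circEZH2_005. The ranges of Reg4 nearly coincided, with a log2 fold change of 0.02 (SE 0.14, 95% interval -0.32 to 0.35, adjusted p = 0.961, same test) whose sign differed between ways of scaling.

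**Figure D2:**
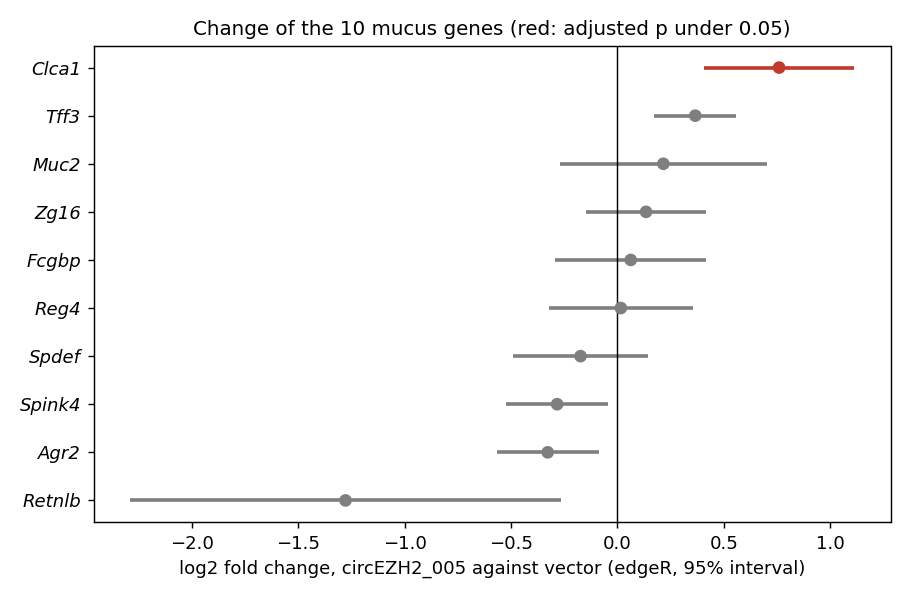
Log2 fold change of each mucus gene, circEZH2_005 against vector (horizontal axis), as points with 95% intervals from edgeR (3 samples per group); red marks an adjusted p under 0.05. Clca1 at 0.76 is the only gene in red, the intervals of Tff3, Agr2, Spink4 and Retnlb exclude 0 without passing the adjustment, and those of the other 5 genes include 0.

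Because the genes of 1 sample share its depth, their counts were also set against each other within each sample. Such a ratio does not remove differences in cell content where a gene is also expressed outside goblet cells, which was not tested. In all, 13 ratios of mucus gene counts were computed. Clca1 per Agr2 was 0.836, 1.31 and 0.990 in the vector samples and 2.05, 2.73 and 1.82 in the circEZH2_005 samples. The mean ratio went from 1.04 ± 0.24 to 2.20 ± 0.47 (SD, n = 3 each), 2.11 times as high. Clca1 was higher and Agr2 lower in every circEZH2_005 sample, so this ratio had to separate the groups, and its values are a description of size only.

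Tff3 per Agr2 was 0.583, 0.651 and 0.560 with the vector and 0.906, 1.07 and 0.917 with circEZH2_005. The mean ratios of Clca1 per Spink4 and Tff3 per Spink4 were 2.11 and 1.59 times as high as with the vector. In these 3 ratios as well, the separation follows from the single genes and adds nothing to them.

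The ratios to Muc2, whose groups overlapped, were not fixed in this way. Agr2 per Muc2 was lower in every circEZH2_005 sample, at 0.708, 0.904 and 0.652 with the vector against 0.576, 0.400 and 0.564 with circEZH2_005. Retnlb per Muc2 was lower without overlap too, with a mean 0.374 times that of the vector samples. Clca1 per Muc2 overlapped (0.592, 1.18 and 0.646 against 1.18, 1.09 and 1.03; exact permutation p = 0.4), with Muc2 itself low in vector sample 2. The other 6 ratios, those of Tff3, Fcgbp, Zg16, Spink4, Spdef and Reg4 to Muc2, overlapped as well. Adjusted over the 13 ratios, no p can be under the 0.1 that a single test allows.

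**Figure D3:**
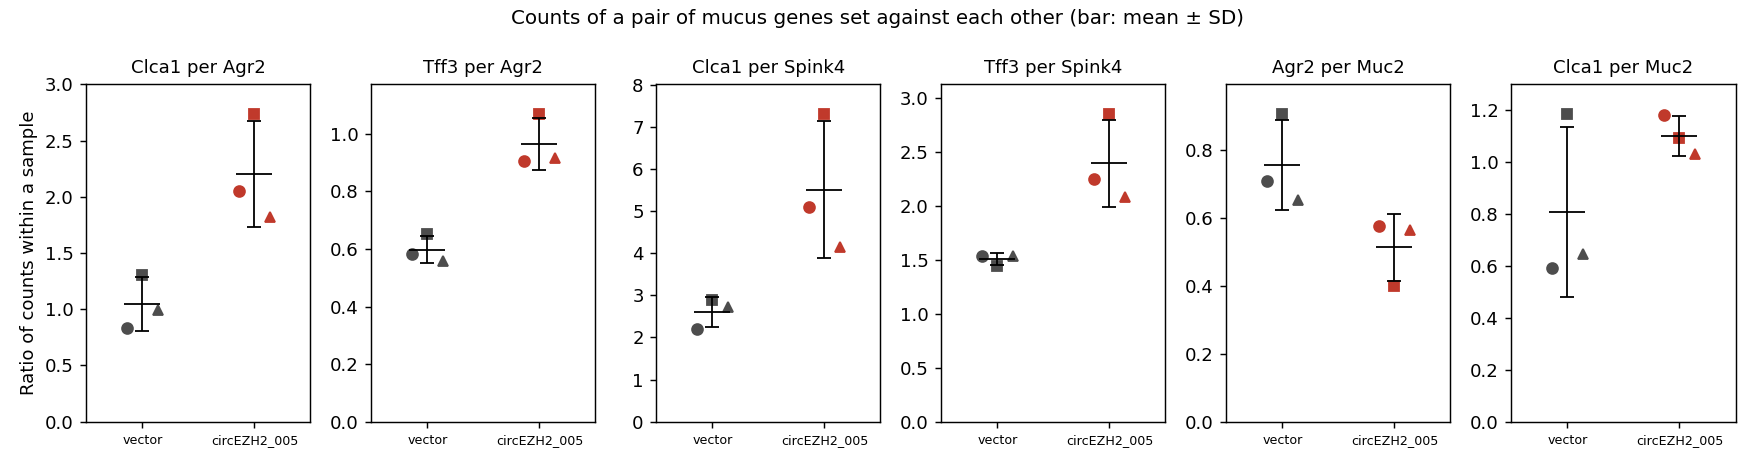
Ratio of the counts of a pair of mucus genes within each sample (vertical axes, no unit, linear from 0), in vector (grey) and circEZH2_005 (red) samples; circles, squares and triangles are samples 1, 2 and 3, and the bars are mean ± SD (n = 3 each). The groups lie apart in the first 5 panels, in the first 4 as the single genes require, and overlap for Clca1 per Muc2, where vector sample 2 (1.18) stands above the other vector samples (0.592 and 0.646).

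Across the 6 samples the genes followed more than 1 pattern. Muc2, Fcgbp and Zg16 varied together, with Pearson correlations of log2 CPM of 0.96 (Muc2 and Fcgbp), 0.88 (Muc2 and Zg16) and 0.90 (Fcgbp and Zg16) over 6 samples, and of 0.98, 0.86 and 0.93 for deviations from the group means. Clca1 ran against Agr2 (-0.91) and Spink4 (-0.92), and within the groups these values were -0.64 and -0.75. Agr2, Spdef and Retnlb went together, at 0.80 for Agr2 and Spdef and 0.83 for Agr2 and Retnlb, and at 0.80 and 0.51 within the groups. Over all 45 pairs, 26 correlations were positive and the median was 0.12. These are descriptions of 6 points that share library and depth with each other.

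**Figure D4:**
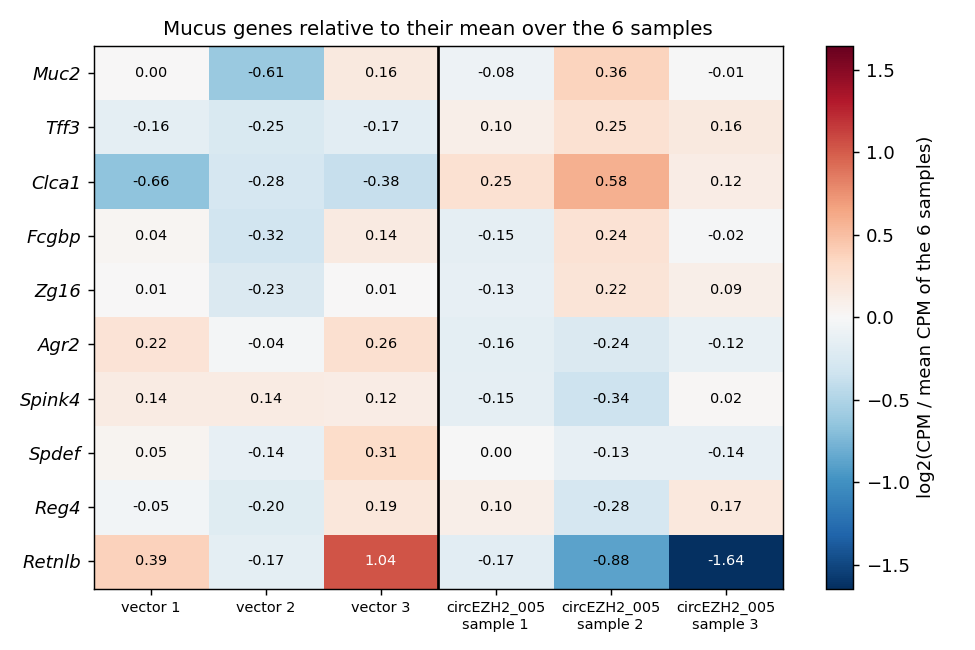
Level of each mucus gene in each sample as log2 of its CPM over its mean CPM in the 6 samples (colour and printed value; blue below and red above the mean), vector samples left and circEZH2_005 samples right of the line. Muc2, Fcgbp and Zg16 are lowest in vector sample 2 and highest in circEZH2_005 sample 2, whereas Clca1 and Tff3 are below their mean in the 3 vector samples and above it in the 3 circEZH2_005 samples.

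The mean of the 10 standardised profiles was lowest in vector sample 2 (-0.74) and highest in vector sample 3 (0.63), so that both extremes were vector samples. Correlations with this mean were 0.83 for Muc2 and Fcgbp, 0.74 for Spdef, 0.62 for Zg16, 0.52 for Reg4, 0.46 for Agr2 and 0.38 for Retnlb. They were only 0.17 for Tff3, -0.05 for Spink4 and -0.08 for Clca1, so the mean profile does not describe the 10 genes as a set. Among 10059 protein-coding genes outside the lists with a mean of at least 1 FPKM, those whose log2 CPM correlated most with this mean profile included Slitrk6 (0.996), Fam114a2 (0.989), Usp22 (0.985), Sema6d (0.974), Apbb3 (0.972), Ssh3 (0.969) and Hgfac (0.959), over 6 samples. None of these 7 genes was called, with adjusted p of 0.759 or more by edgeR with Benjamini-Hochberg adjustment. The mean profile was 0.11, -0.74 and 0.63 in the vector samples and -0.125, 0.10 and 0.02 in the circEZH2_005 samples. Genes picked for following it could thus hardly differ between the groups, so the missing calls carry no information. Their correlations are the highest picked from 10059 genes over 6 points.

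Levels were compared between the genes on the FPKM scale, which corrects for length. In vector samples Zg16 was the highest at 766 ± 64.3 FPKM (SD, n = 3), followed by Tff3 at 627 ± 15.2, Spink4 at 429.9 ± 6.31, Agr2 at 403 ± 40.5, Fcgbp at 269.6 ± 41.3, Clca1 at 142 ± 21.1, Muc2 at 99.5 ± 25.3, Reg4 at 49.3 ± 6.72, Spdef at 7.19 ± 1.11 and Retnlb at 5.17 ± 2.14 FPKM. The ranges of Spink4 and Agr2, of Clca1 and Muc2, and of Spdef and Retnlb overlapped, and the other neighbours lay apart. Zg16, Tff3 and Spink4 thus stood at the top of the FPKM scale, and the transcription factor Spdef and the secreted protein Retnlb at the bottom. By mean FPKM over the 6 samples Zg16 ranked 50th and Tff3 58th of the 28752 genes.

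In circEZH2_005 samples the order of the mean FPKM was the same. Zg16 stood at 789.6 ± 51.6 and Tff3 at 760.0 ± 23.0 FPKM (SD, n = 3), and their ranges now overlapped. Spink4 (333 ± 46.4 FPKM), Agr2 (303 ± 25.4), Fcgbp (264 ± 25.1) and Clca1 (226 ± 33.8) formed a run of overlapping neighbours. With the vector, Agr2 had lain clear of Fcgbp and Fcgbp clear of Clca1. Retnlb was lowest at 2.03 ± 1.12 FPKM and no longer overlapped Spdef at 6.02 ± 0.70. Together the 10 genes took 0.695%, 0.593% and 0.749% of the counts of the vector samples and 0.694%, 0.773% and 0.683% of those of the circEZH2_005 samples, with overlap between the groups.

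The rest of the mucus pathway was read from 6 lists of 142 genes, for which the table held 139 entries, of which 134 were tested. St6galnac2 had more than 1 entry, and each entry is counted as a gene. Of these 134, 5 were higher and 5 were lower in circEZH2_005 samples, beside 2.69% and 0.986% of all genes tested. The median log2 fold change of the 134 was -0.12, beside 0.00 for all genes tested. The groups did not overlap for 59 of them (44.0%), beside 30.6% of all genes tested. The calls depended on single samples: of the 134 to 136 genes tested in each fit, 0 were called without vector sample 1, 0 without vector sample 3, 1 without circEZH2_005 sample 3 and 2 without circEZH2_005 sample 2, but 17 without vector sample 2 and 13 without circEZH2_005 sample 1. Counts over all 18990 to 19146 genes tested in these fits shifted too. They were 26 higher and 2 lower without vector sample 1, and 31 and 2 without vector sample 3. Without circEZH2_005 sample 3 they were 136 and 33, and without circEZH2_005 sample 2 they were 62 and 6. They were 1098 and 334 without vector sample 2, and 553 and 128 without circEZH2_005 sample 1.

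Among the 14 lineage transcription factors, 1 rose and 13 were not called, beside 2.69% higher and 0.986% lower of all genes tested. DESeq2 called 2 higher and 2 lower, beside 9.65% and 4.26% of all genes. For limma on log2(FPKM + 1) these were 1 and 2, beside 2.79% and 2.74%. At an unadjusted p under 0.05 by edgeR 4 were higher and 4 lower, beside 14.0% and 9.72% of all genes tested. Klf4, a Krüppel-like factor needed for goblet cell differentiation, had 54.0, 64.9 and 54.1 CPM in the vector samples and 136, 218 and 151 CPM in the circEZH2_005 samples. All circEZH2_005 samples exceeded all vector samples by a wide margin (log2 fold change 1.54, SE 0.18, adjusted p = 0.0138 by edgeR with Benjamini-Hochberg adjustment). Foxa3, a forkhead factor, was at 20.9 ± 2.27 against 13.4 ± 1.86 CPM (log2 fold change -0.64, adjusted p = 0.0519), Elf3 at 314 ± 14.9 against 388 ± 22.7 CPM (0.31, adjusted p = 0.0847), and Creb3l4 at 11.5 ± 0.89 against 7.82 ± 1.34 CPM (-0.56, adjusted p = 0.0936; SD, n = 3 each, same test). Elf3 shares exon positions with Gm26642; whether strand was used in counting is not given, so reads of such partners cannot be told apart.

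Genes of ER folding and export came next. Of 25 genes 0 were higher and 2 were lower by edgeR, beside 2.69% and 0.986% of all genes tested. DESeq2 called 0 and 7, beside 9.65% and 4.26% of all genes, and limma 0 and 4, beside 2.79% and 2.74%. At an unadjusted p under 0.05 by edgeR there were 1 and 12, beside 14.0% and 9.72% of all genes. Of the 25, 20 had a negative log2 fold change (9174 of the 18348 genes tested did), and the median was -0.19. Pdia6, a protein disulfide isomerase like Agr2, had 413, 418 and 427 CPM with the vector and 335, 307 and 304 CPM with circEZH2_005 (log2 fold change -0.41, SE 0.08, adjusted p = 0.0412). Spcs3, a subunit of the signal peptidase, fell from 129 ± 3.91 to 100.2 ± 4.23 CPM (SD, n = 3 each; log2 fold change -0.37, adjusted p = 0.0452). Pdia4 (-0.32, adjusted p = 0.0616) and Sec61b (-0.39, adjusted p = 0.0630) followed without a call (all by edgeR with Benjamini-Hochberg adjustment). In 15 of the 25 genes every circEZH2_005 sample lay below every vector sample, beside 14.2% of all genes tested. Pdia6 and Spcs3 share exon positions with Atp6v1c2 and Asb5.

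Enzymes of mucin O-glycosylation moved both ways. Of 40 entries tested, with separate entries for St6galnac2, 7 were higher and 12 lower at an unadjusted p under 0.05 by edgeR. The shares of all genes tested were 14.0% and 9.72%. DESeq2 called 5 higher and 8 lower, beside 9.65% and 4.26% of all genes. For limma on log2(FPKM + 1) these were 2 and 4, beside 2.79% and 2.74%. By edgeR 3 were called higher and 3 lower, beside 2.69% and 0.986% of all genes tested. The higher genes were Gcnt1, which branches the sugar chains, at 1.94 ± 0.16 against 5.69 ± 1.85 CPM (log2 fold change 1.55, adjusted p = 0.0296), the sialyltransferase St3gal4 at 825 ± 86.9 against 1319 ± 195 CPM (0.68, adjusted p = 0.0434), and B3gnt7, which extends them, at 31.5 ± 2.32 against 54.8 ± 13.0 CPM (0.80, adjusted p = 0.0477). The lower genes were C1galt1c1, the chaperone of the enzyme that makes the core of the chains, at 74.2 ± 3.25 against 49.4 ± 2.92 CPM (-0.59, adjusted p = 0.0191), Gcnt3, the mucin-type branching enzyme, at 73.2 ± 7.79 against 45.5 ± 2.82 CPM (-0.69, adjusted p = 0.0215), and the sulfotransferase Chst4 at 32.6 ± 6.07 against 16.0 ± 1.96 CPM (-1.02, adjusted p = 0.0247; vector against circEZH2_005, SD, n = 3 each, edgeR with Benjamini-Hochberg adjustment). Thus Gcnt1 and Gcnt3, related branching enzymes, went in opposite directions. St3gal4 and B3gnt7 share exon positions with 4930581F22Rik and Gm28626.

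Of 27 other goblet cell markers, 1 was higher and 0 were lower by edgeR, beside 2.69% and 0.986% of all genes tested. DESeq2 called 1 and 4, beside 9.65% and 4.26% of all genes, and limma 1 and 3, beside 2.79% and 2.74%. The median log2 fold change was -0.18. At an unadjusted p under 0.05 by edgeR there were 1 and 6, beside 14.0% and 9.72% of all genes tested. The higher gene was Ido1, the tryptophan-degrading enzyme that interferon induces, at 2.44, 14.3 and 3.37 CPM in the vector samples and 98.6, 139.8 and 71.3 CPM in the circEZH2_005 samples (log2 fold change 3.94, SE 0.67, adjusted p = 0.0310 by edgeR with Benjamini-Hochberg adjustment). Just short of a call were Ccl9, a chemokine (log2 fold change -0.75, adjusted p = 0.0508), Atp2c2, a Golgi calcium pump (-0.58, adjusted p = 0.0509), and S100a6 (-1.66, adjusted p = 0.0553).

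Neither the other mucins nor the secretion genes held a call by edgeR. For the mucins there were 0 calls by DESeq2 and by limma as well, and 0 genes had an unadjusted p under 0.05. Of 8 other mucins tested, 4 had a positive and 4 a negative log2 fold change, and Muc3, a membrane mucin, had the smallest p (0.47, adjusted p = 0.252), followed by Muc13 (0.19, adjusted p = 0.379), Muc6 (-0.42, adjusted p = 0.490) and Muc20 (-0.15, adjusted p = 0.845). Of 20 secretion and release genes, the ion transporter Slc12a2 (-0.58, adjusted p = 0.0509) and the chloride channel Cftr (-0.47, adjusted p = 0.0509), which hydrate mucus, lay nearest the threshold. They were followed by Rab27a, a regulator of granule release (0.52, adjusted p = 0.0541), and the protease Mep1a (1.54, adjusted p = 0.0595; all by edgeR with Benjamini-Hochberg adjustment). At an unadjusted p under 0.05 the 20 genes held 5 higher and 5 lower, beside 14.0% and 9.72% of all genes tested. Of the 20, DESeq2 called 2 higher and 3 lower, beside 9.65% and 4.26% of all genes. For limma these were 0 and 2, beside 2.79% and 2.74%.

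**Figure D5:**
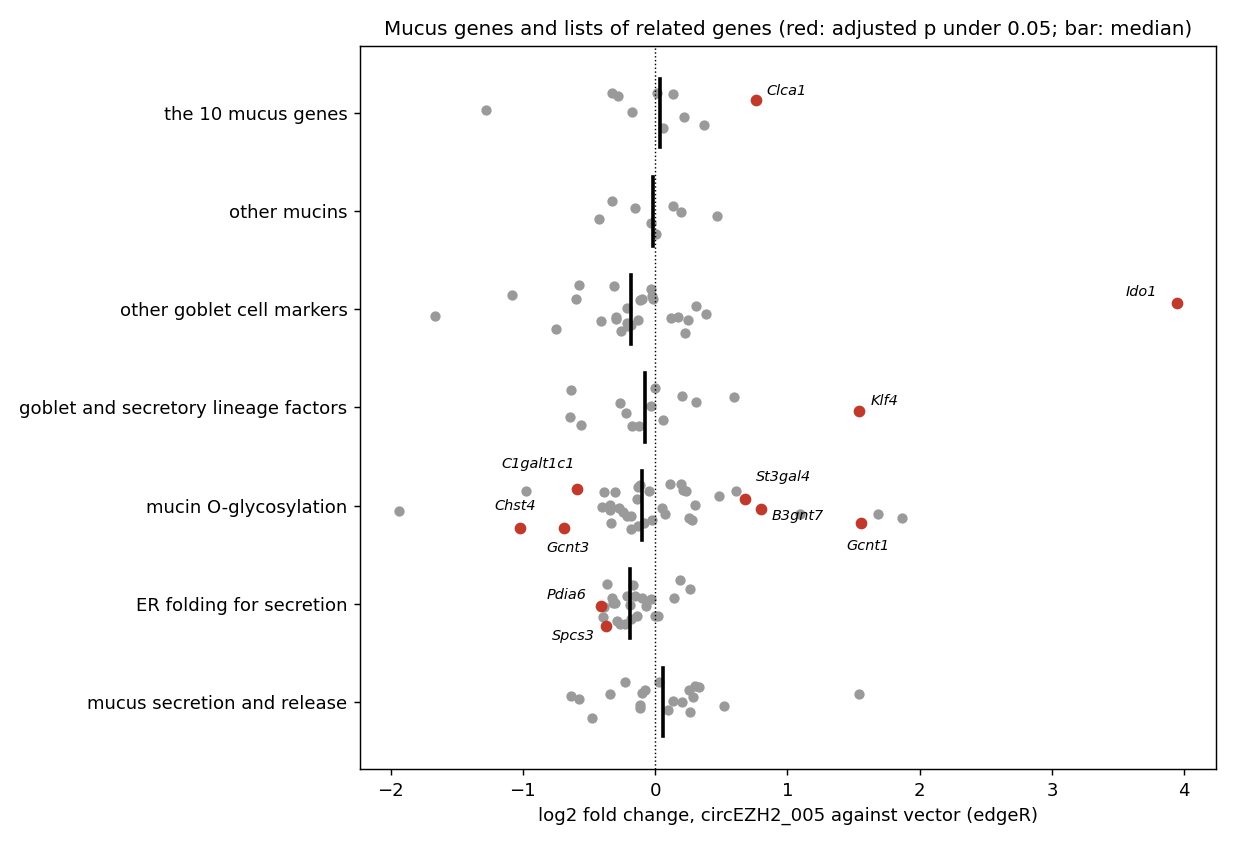
Log2 fold change, circEZH2_005 against vector (horizontal axis), of every tested gene of the 10 mucus genes and of the 6 lists of related genes (rows); points are genes, red points have an adjusted p under 0.05 by edgeR and are named, and black bars are medians. The medians lie between -0.19 (ER folding) and 0.06 (secretion and release), and calls in both directions stand in the O-glycosylation row.

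The label of intestinal crypt stem cells was checked against markers of each lineage. On the FPKM scale the stem cell marker Lgr5 was at 1.39 ± 0.28 FPKM in vector samples, whereas Zg16 of goblet cells was at 766, Sis of enterocytes at 538 and Defa24 of Paneth cells at 2743 FPKM. Markers of differentiated lineages were thus abundant beside Lgr5. The 6 stem cell markers together summed to 479, 766 and 509 FPKM in the vector samples, so Lgr5 alone does not give the level of stem cell marker RNA. Markers of other cell types moved with the groups. Of all genes tested, 2.69% were called higher and 0.986% lower (9.65% and 4.26% by DESeq2, 2.79% and 2.74% by limma). Of 6 stem cell markers 3 fell: Smoc2 (log2 fold change -0.81, adjusted p = 0.0203), Rgmb (-0.58, adjusted p = 0.0284) and Lgr5 (-0.88, adjusted p = 0.0434). The enterocyte marker Apoa4 (0.91, adjusted p = 0.0279) and the epithelial keratin Krt8 (0.57, adjusted p = 0.0301) rose, each 1 of its list of 8 and 6 (all by edgeR with Benjamini-Hochberg adjustment). Of the stem cell markers 5 had a negative and 1 a positive log2 fold change. Of the enterocyte markers 6 had a positive and 2 a negative one, and all 6 epithelial markers a positive one. At an unadjusted p under 0.05 by edgeR 4 stem cell markers were lower, beside 9.72% of all genes tested. In the same way 4 enterocyte and 3 epithelial markers were higher, beside 14.0%. DESeq2 called 4 stem cell markers lower, and 3 enterocyte and 3 epithelial markers higher. For limma these were 2, 1 and 1. Apoa4 and Krt8 share exon positions with annotated genes that include Gm10680 and Gm36026. Of 8 Paneth cell markers none was called at the adjusted threshold, 1 was lower at an unadjusted p under 0.05 and by DESeq2, 0 by limma, and all 8 had a negative log2 fold change (median -0.55). By edgeR 0 of 6 enteroendocrine and 0 of 5 tuft cell markers were called. At an unadjusted p under 0.05 these were 3 and 0, by DESeq2 1 higher and 1 lower enteroendocrine and 0 tuft cell markers, and by limma 1 lower and 0. The 9 leukocyte markers summed to 75.5 to 192 CPM in vector samples and 255 to 448 CPM in circEZH2_005 samples, with Ptprc and Cd3e detected in every sample. All 9 had a positive log2 fold change (median 1.57) and 0 were called (4 by DESeq2, 0 by limma). At an unadjusted p under 0.05 by edgeR 5 were higher, beside 14.0% of all genes tested. Among 5 fibroblast and endothelial markers tested, 2 had a positive and 3 a negative log2 fold change (median -0.13). Only Pecam1 was called by edgeR (1.93, adjusted p = 0.0377), at 0.98 ± 0.31 against 3.74 ± 1.36 CPM. DESeq2 called 1 of the 5 higher, and limma called 0. The part of these other cell types in the values of the mucus genes was not tested.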

How the data were processed

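Polyadenylated RNA of 6 samples (3 vector, 3 circEZH2_005) was sequenced. For every gene the authors deposited an unnormalised read count and an FPKM value per sample. Per the submitters' processing notes cutadapt 1.9, HISAT2 2.0.4, StringTie 1.3.4d, DESeq2 and mm10 were used, in roles that are not given; annotation, strand setting and filters are not given in the sources used here. The table names its control columns as a negative control, and these were matched to the vector samples, the only control group. Neither circEZH2_005 itself nor the viral GFP was analysed here.

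Genes were filtered with filterByExpr, scaled with TMM and tested in edgeR 4.0.16 (R 4.3.3; glmQLFit and glmQLFTest) without covariates, with Benjamini-Hochberg adjustment over 18348 genes; SE is the log2 fold change over the square root of F. The fits were tested on simulated data. DESeq2 1.42.0 and limma 3.58.1 were alternatives. Gene positions are those of the table, which match GRCm38 (28527 of 28752 starts equal GENCODE M21). From each related list, called genes and up to 4 (marker lists up to 2) with the smallest p were eligible to be named, as were the 8 genes most alike the members' mean profile, of which 1 is not reported here. Members and lists were chosen with earlier results of these data known.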

Additional observations from a re-analysis of the deposited data

How the results depend on the processing

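With 3 samples per group the spread between samples, more than depth, limited precision, also for Retnlb, whose coefficient of variation was 41.6% and 49.0% within the groups. The number of mucus genes called, 1 by edgeR, was 4 with DESeq2 (Clca1, Tff3, Agr2 and Retnlb), 2 with a minimum mean of 2 FPKM, 0 without a filter on low counts, 0 with limma on log2(FPKM + 1), 0 with limma on log2(FPKM + 0.1), and 0 to 2 when single samples were left out. RLE scaling, upper-quartile scaling and library size alone kept it at 1. The number of related genes called, 10 by edgeR, was 34 with DESeq2, 17 with a minimum of 2 FPKM, 16 with upper-quartile scaling, 17 and 19 with limma on log2(FPKM + 0.1) and log2(FPKM + 1), 3 without a filter and 0 to 17 when single samples were left out. Clca1 had an adjusted p under 0.05 in 6 of 15 alternatives (range 5.2e-05 to 0.165), Tff3 in 2 (0.00375 to 0.189), Agr2 in 2 (0.0429 to 0.314) and Retnlb in 1 (0.0231 to 0.353); Muc2, Fcgbp, Zg16, Spink4, Spdef and Reg4 in 0. The sign changed for Fcgbp and Reg4 alone: Fcgbp was at -0.0045 with library size alone, -0.0207 and -0.0206 with limma, and -0.0598 to 0.157 when single samples were left out, and Reg4 was at -0.0396 with library size alone, -0.0750 and -0.0734 with limma, -0.0257 with upper-quartile scaling and -0.0724 to 0.142 when single samples were left out. The causes were not tested. Over all genes 493 were higher and 181 lower by edgeR, against 323 and 319 with limma on log2(FPKM + 0.1), 371 and 364 on log2(FPKM + 1), 1588 and 701 with DESeq2, 241 and 36 with the replicate block, 132 and 37 without a filter, 26 to 1098 higher and 2 to 334 lower when single samples were left out.

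The labels give both groups the same replicate numbers, but do not say whether same-numbered samples belong together. Deviations of same-numbered samples from their group means correlated at -0.23, -0.04 and 0.09. Such values from groups of 3 cannot decide whether these samples shared a culture, animal or batch. With the replicate block 0 mucus genes and 3 related genes were called, and for Clca1 edgeR gave an adjusted p of 0.0594 at 0.76 on the log2 scale.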
